A study of Mus musculus with 22 samples.

Results

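The genes described here are 35 lysosomal genes of the mouse: acid hydrolases, their activator proteins, lysosomal membrane proteins, *Grn* and the transcription factor *Tfeb*. They were listed by name, with the cathepsins left out, and all 35 were found among the 24454 gene symbols of the count table. RNA was sequenced from 22 libraries of 25 cells each, sorted from the aorta-gonad-mesonephros (AGM), the region of the midgestation embryo in which endothelial cells of the aorta turn into blood cells, a change called the endothelial to haematopoietic transition. The embryos were C57BL/6, with no added allele or treatment in any group, and every gate required VE-Cad (VE-Cadherin), the adhesion protein of endothelial junctions. CD44, a receptor for hyaluronan, and the receptor tyrosine kinase Kit then split the cells into 4 populations. Of the 10 CD44Neg libraries, 4 were from embryonic day 9.5 (E9.5), 3 from E10 and 3 from E11. Of the 6 CD44LowKitNeg libraries, 1 was from E9.5, 2 were from E10 and 3 from E11. The 3 CD44LowKitPos libraries comprised 1 from E9.5 and 2 from E10, and the 3 CD44High libraries were all from E11. The labels do not say that libraries of a group came from separate embryos, so p-values measure the spread between these libraries, which may be technical. Each label date belongs to 1 stage, so date and stage cannot be told apart. The titles of all CD44LowKitPos and CD44High libraries carry the letters KG, and no CD44Neg or CD44LowKitNeg title does. What the letters mark is not given, and it cannot be told apart from population.

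The lysosome is an acidic compartment in which soluble hydrolases degrade glycolipids, glycogen, glycosaminoglycans, lipids and proteins delivered by endocytosis and autophagy. Its membrane is lined by heavily glycosylated proteins such as LAMP1 and LAMP2, a proton pump keeps it acidic, and loss of a single hydrolase or transporter causes a lysosomal storage disease. TFEB and its relatives of the MiT/TFE family activate many lysosomal genes, and macrophages, which digest what they engulf, are rich in lysosomes.

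Between 3912350 and 8657546 reads were counted per library. The summed level of 7 endothelial markers was 3058 to 5087 CPM (read counts scaled to a common total and normalized between libraries) in CD44Neg and 3368 to 7441 CPM in CD44LowKitNeg libraries. It was 525 to 1558 CPM in CD44LowKitPos and 14.3 to 64.4 CPM in CD44High libraries, and *Cdh5*, the gene of VE-Cadherin, was at 0 in all 3 CD44High libraries although the gate required the protein. CD44High libraries instead held all 11 macrophage markers examined, which summed to 4101, 6094 and 6843 CPM (replicates 20, 21 and 22). The same sum was 177 to 257 CPM in CD44LowKitPos, 0 to 72.6 CPM in CD44LowKitNeg and 0 to 14.01 CPM in CD44Neg libraries, and 4 of the 11 (*Adgre1*, *C1qa*, *C1qb* and *C1qc*) were at 0 in all 19 libraries outside CD44High. Blood progenitor markers were present in CD44High libraries too, at a summed 734 to 877 CPM, beside 409 to 809 CPM in CD44LowKitPos libraries. Erythroid markers summed to 47.5 to 256 CPM and mesenchyme markers to 0.263 to 237 CPM in CD44High libraries, to 14.01 to 62.6 and 4.28 to 99.98 CPM in CD44LowKitNeg libraries and to 2.57 to 23.7 and 0 to 36.4 CPM in CD44Neg libraries. Megakaryocyte markers summed to 64.8 to 232 CPM in CD44High and 71.6 to 168 CPM in CD44LowKitPos libraries. The ribosomal RNA gene *Rn45s* took 16.59 to 23.89% of the counts in CD44High libraries and 1.921 to 19.35% in the others. In bulk libraries, fewer cells of a type and less RNA per cell cannot be told apart.

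The summed level of the 35 genes is given first for each population with its stages pooled. It was 1453 to 2489 CPM in CD44Neg libraries (median 1770, n = 10) and 2270 to 4260 CPM in CD44LowKitNeg libraries (median 3181, n = 6). It was 2321, 2569 and 1964 CPM in the CD44LowKitPos libraries (replicates 17, 18 and 19), of which the last lay inside the CD44Neg range, the first inside both ranges and the second inside that of CD44LowKitNeg cells. It was 3537, 4852 and 4759 CPM in the CD44High libraries (replicates 20, 21 and 22), of which 2 were above every other library. Stage differs between these populations. At E10 the sum was 2270 and 2880 CPM in CD44LowKitNeg and 2321 and 2569 CPM in CD44LowKitPos libraries, which overlapped, and at E11 it was 3482 to 4260 CPM in CD44LowKitNeg libraries, of which 2 lay inside the CD44High range.

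**Figure D1:**
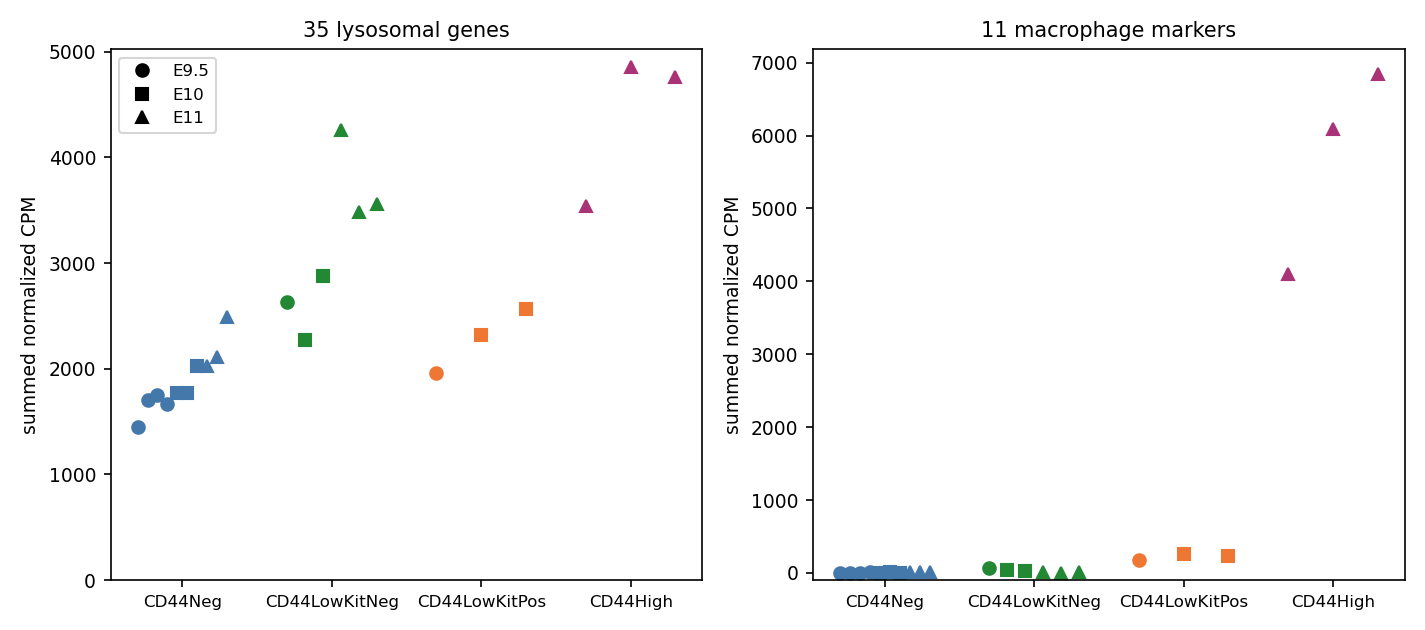
Summed normalized CPM of the 35 lysosomal genes and of 11 macrophage markers in each of the 22 libraries, by population. The lysosomal sum is 1453 to 2489 in CD44Neg and 2270 to 4260 in CD44LowKitNeg libraries, where the macrophage sum is at most 72.6, while CD44High libraries hold 4101 to 6843 CPM of macrophage markers.

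Per kilobase of transcript, the membrane genes *Lamp1*, *Cd63* and *Lamp2* had the highest means of the 35 in all populations but CD44LowKitPos. Other membrane genes were lower, and *Mcoln1*, *Acp2*, *Ctns* and *Scarb2* ranked 10, 17, 25 and 27 in CD44Neg libraries. In CD44Neg libraries *Lamp1* stood at 128 ± 35.01 CPM per kilobase (mean and SD, n = 10), *Cd63*, a tetraspanin of late endosomes and lysosomes, at 77.8 ± 18.5 and *Lamp2* at 71.5 ± 21.7. The last 2 did not differ beyond their spread. The same 3 genes led in CD44LowKitNeg libraries (n = 6), with 234 ± 45.6, 217 ± 80.5 and 156 ± 51 CPM per kilobase, and in CD44High libraries (n = 3), with 308 ± 61.2, 261 ± 42.7 and 188 ± 75.9. The spread of *Lamp2* overlapped those of genes ranked below it. These were *Npc2* (56.5 ± 14.6) in CD44Neg, *Lipa* (85.3 ± 33.4) in CD44LowKitNeg and *Hexa* (145 ± 66.9) and *Grn* (129.5 ± 57.7) in CD44High libraries, among others. In CD44LowKitPos libraries (n = 3) *Cd63* came first with 182 ± 18.9 CPM per kilobase, then *Lamp1* with 159 ± 57.7 and *Gusb*, beta-glucuronidase, with 93.1 ± 30.1, and the first 2 of these did not differ beyond their spread.

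The medians of the less abundant genes are given in the order CD44Neg, CD44LowKitNeg, CD44LowKitPos and CD44High. Among the hydrolases of glycolipids and sphingomyelin, *Gla*, alpha-galactosidase A, had medians of 20.8, 33.5, 33.1 and 43.6 CPM. *Glb1*, beta-galactosidase, had 36.7, 55.4, 49.4 and 65.4 CPM. *Neu1*, the lysosomal sialidase, had 22.3, 16.7, 18.4 and 36.3 CPM, and its ranges overlapped between all populations. *Smpd1*, acid sphingomyelinase, had 15.3, 26.1, 11.8 and 27.1 CPM. Among the hydrolases of glycogen and glycoproteins, *Gaa*, acid alpha-glucosidase, had 30.6, 54.5, 45.3 and 40.7 CPM. *Fuca1*, alpha-L-fucosidase, had 53.8, 65.6, 44.9 and 77.4 CPM. The ranges of *Gla*, *Glb1*, *Smpd1*, *Gaa* and *Fuca1* overlapped between all populations too.

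*Manba*, beta-mannosidase, had medians of 8.51, 19.3, 14.99 and 40.7 CPM, and *Aga*, aspartylglucosaminidase, of 20.7, 37, 22.7 and 57.5 CPM. Of the hydrolases of glycosaminoglycans, *Galns* had 13.6, 12.2, 10.1 and 21 CPM, *Idua* 6.75, 14.5, 10.3 and 25.7 CPM, *Ids* 3.54, 13.2, 5.55 and 2.58 CPM and *Naglu* 7.37, 15.2, 3.37 and 7.88 CPM. The last 2 had their highest median in CD44LowKitNeg libraries. *Sgsh*, which acts on heparan sulphate, was at 0.649, 1.56, 1.47 and 0.993 CPM, and an opposite-strand gene shares 21.9% of its transcript. For the membrane, *Scarb2*, which carries glucocerebrosidase to the lysosome, had 16.8, 10.99, 14.4 and 51.8 CPM, *Ctns*, the cystine exporter, 10.6, 30.7, 11.2 and 19.7 CPM, and *Acp2*, a membrane-bound acid phosphatase precursor, 37.6, 32.2, 22.97 and 48.6 CPM. *Cln3*, mutated in a neuronal ceroid lipofuscinosis, had 22.5, 35.2, 44.1 and 45.97 CPM. Opposite-strand genes share 13.8% of the transcript of *Cln3* and 13.3% of that of *Acp2*. The ranges of *Galns*, *Idua*, *Ids*, *Naglu*, *Sgsh*, *Cln3* and *Acp2* overlapped between all populations.

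**Figure D2:**
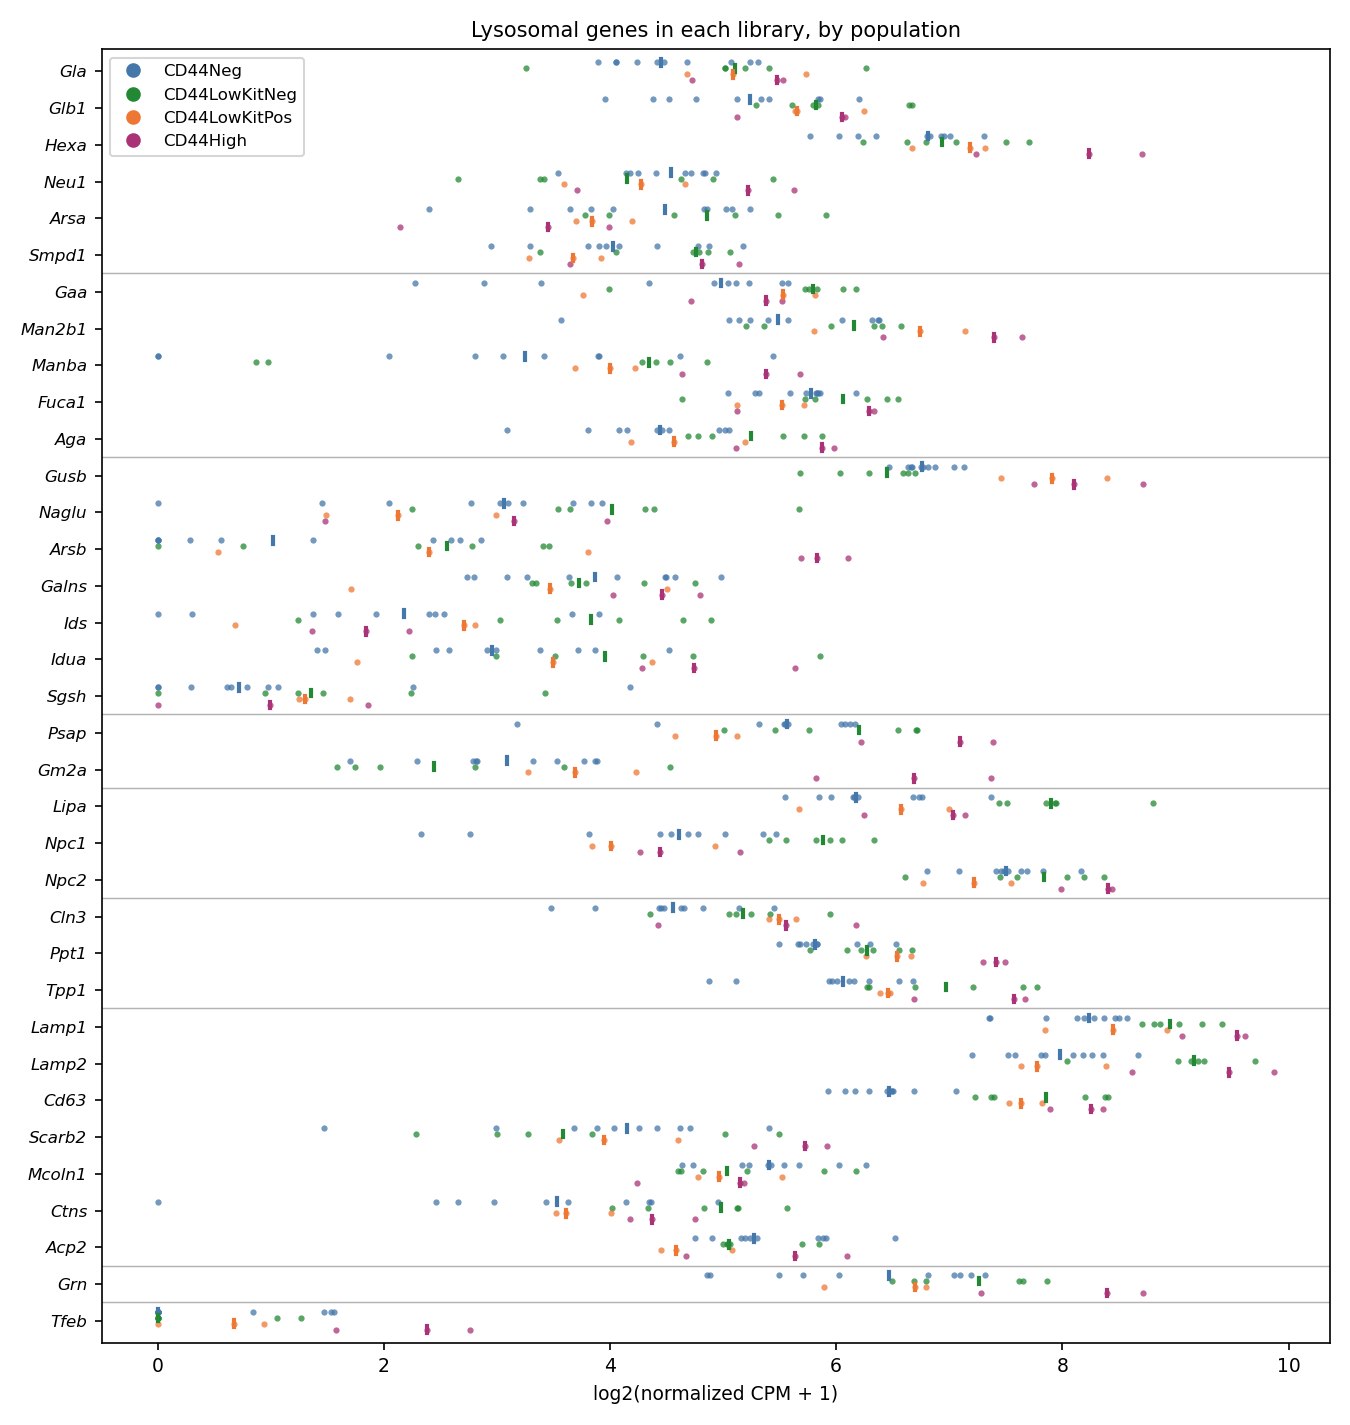
Level of each of the 35 lysosomal genes, grouped by role, in each of the 22 libraries as log2(normalized CPM + 1), 1 point per library coloured by population and a bar at each population's median. *Arsb* and *Gm2a* have their 3 CD44High points apart from all others, and *Lipa* has all 6 CD44LowKitNeg points above every CD44Neg point.

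The comparison of CD44LowKitNeg with CD44Neg cells asks what sets CD44-positive endothelium apart from the rest. The acid lipase gene *Lipa* and the membrane genes *Cd63*, *Lamp1* and *Lamp2* were higher in CD44LowKitNeg cells. These 4 of 33 genes tested rose and 0 fell past an adjusted p of 0.01 (quasi-likelihood test of edgeR, Benjamini-Hochberg adjusted over all 11022 genes tested), where 4.94% of all genes were called higher and 5.23% lower. The median log2 fold change of the 33 was 0.63, beside 0.005 for all genes, and 26 of the 33 lay above 0. *Sgsh* and *Tfeb* were too low to be tested. By role, 3 of 7 membrane genes and 1 of 3 genes of lipid and cholesterol handling were called. Of 17 tested hydrolases of glycolipids, sphingomyelin, glycogen, glycoproteins and glycosaminoglycans 0 were called. In that set 5 had an unadjusted p under 0.05, as did 32.6% of all genes.

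*Cd63* measured 60 to 132 CPM (median 87.6) in CD44Neg and 149 to 337 CPM (median 231) in CD44LowKitNeg libraries. The ranges did not overlap, and the E11 CD44LowKitNeg libraries (337, 294 and 331 CPM) stood above those at E9.5 (168 CPM) and E10 (165 and 149 CPM). The log2 fold change was 1.46 (SE 0.21, adjusted p = 8.88e-05) by edgeR's test with Benjamini-Hochberg adjustment. *Lamp1*, a main glycoprotein of the lysosomal membrane, measured 162 to 379 CPM (median 301) in CD44Neg and 416 to 682 CPM (median 494) in CD44LowKitNeg libraries. Again no CD44Neg library reached the CD44LowKitNeg range, with a log2 difference of 0.85 (SE 0.19, adjusted p = 0.00327) in the same test. The *Lamp1* call was lost without CD44LowKitNeg replicate 11, and the opposite-strand gene *Grtp1* shares 7.94% of its transcript.

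*Lamp2*, which also serves as the receptor of chaperone-mediated autophagy, measured 146 to 407 CPM (median 251) in CD44Neg and 262 to 835 CPM (median 574) in CD44LowKitNeg libraries. The ranges overlapped, and both ends of the CD44LowKitNeg range were E10 libraries. The log2 fold change was 1.11 (SE 0.22, adjusted p = 0.00135). *Lipa*, the lipase that frees cholesterol and fatty acids from lipoprotein lipids, measured 45.7 to 165 CPM (median 71.3) in CD44Neg and 173 to 446 CPM (median 237) in CD44LowKitNeg libraries, with no overlap. Its log2 fold change was 1.55 (SE 0.25, adjusted p = 0.000296), the largest of the 4, by edgeR's test with Benjamini-Hochberg adjustment.

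Within E11, with 3 libraries on each side, *Cd63* and *Lipa* of 33 genes passed the same threshold, where 3.41% of all genes passed in either direction. Their log2 fold changes there were 1.81 (SE 0.28, adjusted p = 0.00484) and 2.03 (SE 0.31, adjusted p = 0.00494) in an edgeR fit of their own, while *Lamp1* had 0.81 (SE 0.23, adjusted p = 0.0554) and *Lamp2* 0.80 (SE 0.18, adjusted p = 0.0224). Within E10, with 2 libraries against 3, 0 of 34 tested passed, *Lipa* came nearest of the 4 with 1.66 (SE 0.29, adjusted p = 0.0488), and 1 of 11191 genes (0.00894%) was called in all. The median of the lysosomal genes was 0.093 within E10, with 18 of 34 above 0, and 0.62 within E11, with 30 of 33 above 0, beside 0.005 and 0.034 for all genes. The E11 CD44LowKitNeg libraries, in which *Cd63* was highest, held 10.01, 0 and 5.47 CPM of summed macrophage markers and the E11 CD44Neg libraries 14.01, 10.3 and 7.33 CPM. With stages pooled the macrophage sum was 0 to 72.6 CPM (median 20.3) in CD44LowKitNeg and 0 to 14.01 CPM (median 4.33) in CD44Neg libraries. Its highest CD44LowKitNeg value was thus outside E11. Summed blood progenitor markers were 8.44 to 276 CPM in CD44LowKitNeg and 0 to 35.3 CPM in CD44Neg libraries. The part of macrophage and blood progenitor markers in the result was not tested.

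*Npc1*, the membrane protein that exports cholesterol from the lysosome, measured 4.04 to 43.4 CPM (median 23.5) in CD44Neg and 41.3 to 79.8 CPM (median 58.1) in CD44LowKitNeg libraries. Its log2 difference of 1.31 (SE 0.39, adjusted p = 0.0201) missed the threshold in edgeR, and DESeq2 called it. Its soluble partner *Npc2* overlapped widely, at 111 to 286 CPM (median 180) and 96.5 to 329.8 CPM (median 227), with 0.25 (SE 0.23). *Tpp1*, a tripeptidyl peptidase mutated in a neuronal ceroid lipofuscinosis, missed it narrowly with 1.04 (SE 0.28, adjusted p = 0.0114) and was called with DESeq2 among other settings. All genes with a log2 fold change of at least 1 that were not called were *Ids* (1.65, SE 0.80), *Naglu* (1.38, SE 0.67), *Npc1* (1.31, SE 0.39), *Idua* (1.27, SE 0.59), *Ctns* (1.23, SE 0.59), *Arsb* (1.08, SE 1.14) and *Tpp1* (1.04, SE 0.28).

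The MiT/TFE factors bind CACGTG, and TCACGTGA is the extended element of many lysosomal promoters. Both were searched for in RefSeq promoter windows of GRCm38.p6 from 250 bases before to 50 bases after each start, found for 32 of the 35 genes. Both motifs read the same on both strands, and the longer contains the shorter. TCACGTGA was in 3 of 32 (9.38%), beside 1.12% of 27025 genes, and CACGTG in 9 of 32 (28.1%), beside 8.09%. Of the 12 genes called in any comparison that had a window, 0 held TCACGTGA and 1, *Lamp1*, held CACGTG, in 4 copies that begin 61, 45, 28 and 15 bases before the start. The *Lamp1* stretch and those of the 3 genes with TCACGTGA are shown to set a called gene beside uncalled ones, and were chosen after the matches were seen. They lie upstream of the start, 5′ to 3′ on the gene's strand, with matches in capitals.
Lamp1 (chr8:13159091-13159160, plus strand): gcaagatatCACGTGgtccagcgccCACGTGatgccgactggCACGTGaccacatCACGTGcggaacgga
Mcoln1 (chr8:3500439-3500498, plus strand): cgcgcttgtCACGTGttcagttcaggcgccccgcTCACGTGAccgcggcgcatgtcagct
Cln3 (chr7:126583332-126583391, minus strand): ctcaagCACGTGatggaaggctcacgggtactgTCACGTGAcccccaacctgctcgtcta
Gla (chrX:134601186-134601245, minus strand): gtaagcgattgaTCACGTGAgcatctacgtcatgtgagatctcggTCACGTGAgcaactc

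The 3 genes with the longer element were called in no comparison. *Mcoln1*, a lysosomal cation channel, measured 23.9 to 75.8 CPM (median 41.5) in CD44Neg and 23.3 to 71.4 CPM (median 31.7) in CD44LowKitNeg libraries, with a log2 fold change of -0.15 (SE 0.31). *Gla* had 0.63 (SE 0.36) and *Cln3* 0.63 (SE 0.31) in that comparison, beside 0.85 (SE 0.19) for *Lamp1*. A match is a run of letters in the window, not a binding site.

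**Figure D3:**
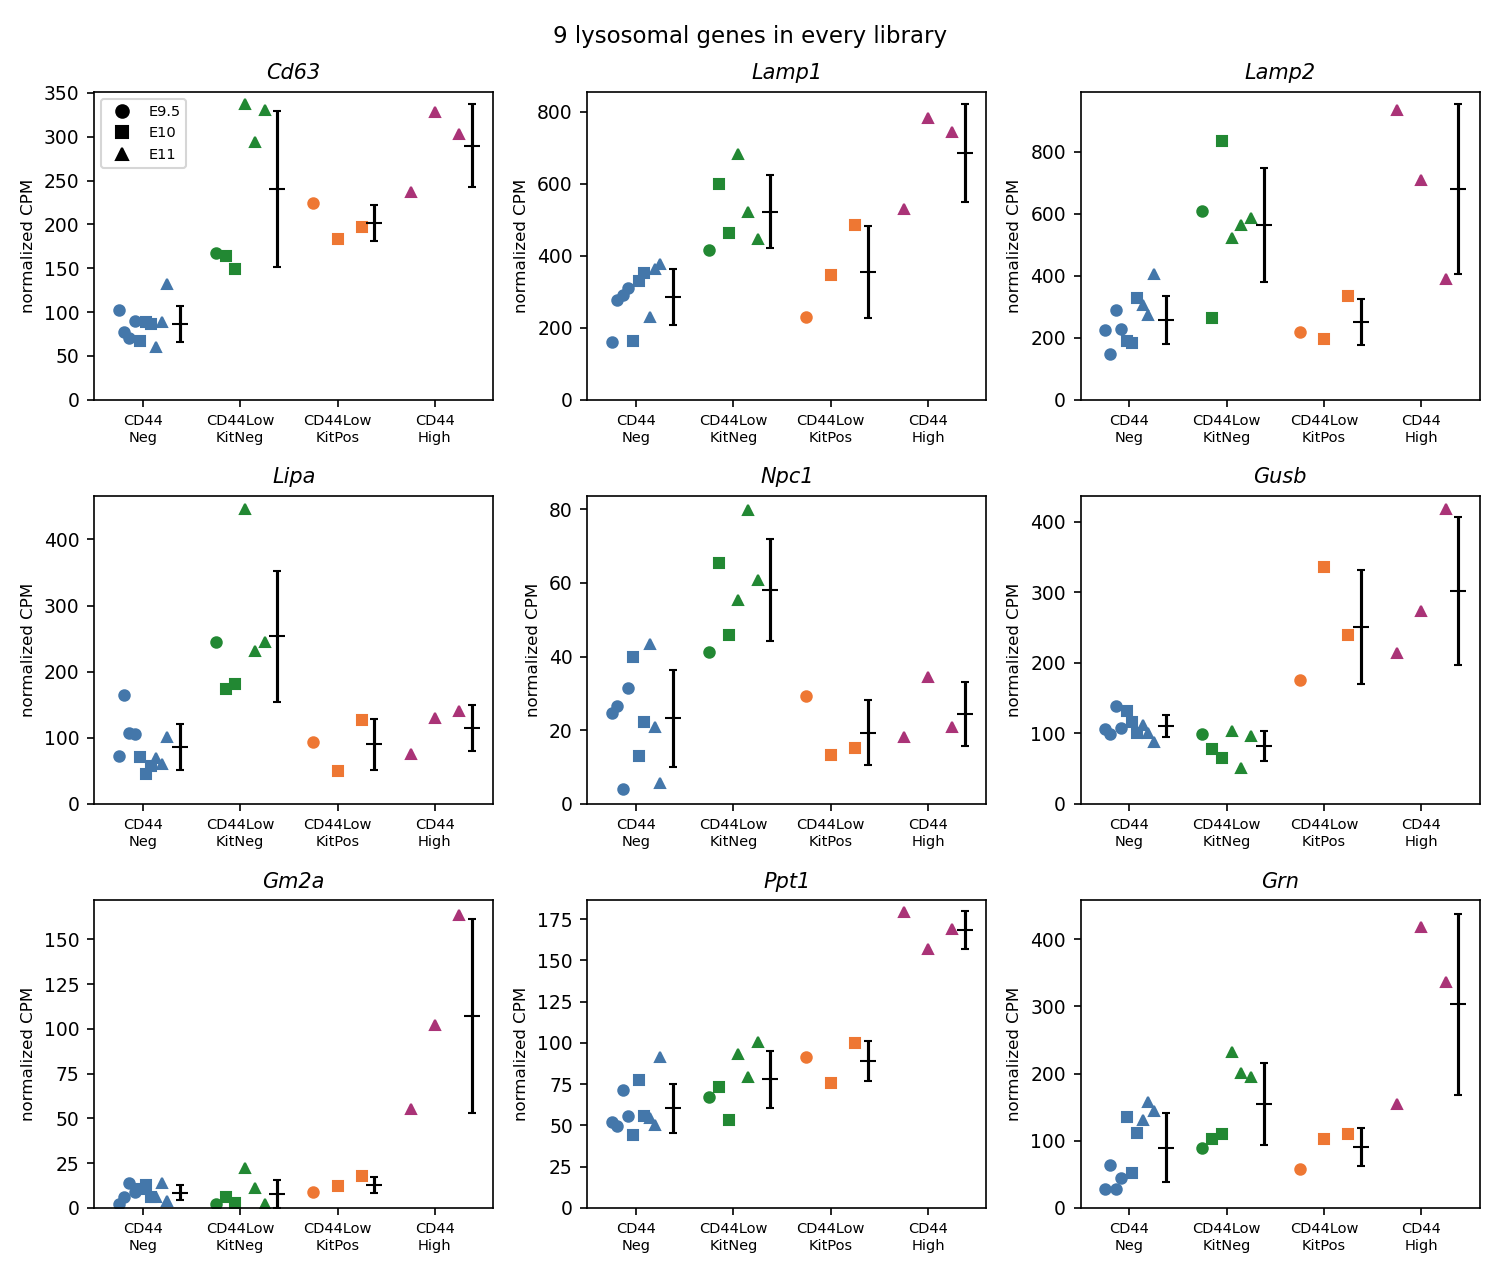
Normalized CPM of 9 lysosomal genes in every library (points, shape by embryonic stage), with the mean and SD of each population (n = 10, 6, 3 and 3). *Cd63*, *Lamp1* and *Lipa* are higher in all 6 CD44LowKitNeg libraries than in any CD44Neg library, *Gusb* is higher in CD44LowKitPos and CD44High libraries than in all others, and *Gm2a* and *Ppt1* are highest in the 3 CD44High libraries.

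CD44LowKitPos cells were next compared with CD44LowKitNeg cells, across the gain of Kit, and *Gusb* was the single gene of the 35 that was called. It rose, and 0 fell, where 2.55% of the 12949 genes tested were called higher and 1.71% lower. Calls over all genes rested on single libraries here, and 552 in both directions became 65 without CD44LowKitPos replicate 17, 160 without replicate 18 and 312 to 342 without CD44LowKitNeg replicate 11, 12 or 13. *Gusb* measured 87.4 to 139 CPM (median 107) in CD44Neg, 50.4 to 103 CPM (median 86.4) in CD44LowKitNeg and 336, 239.5 and 175 CPM in CD44LowKitPos libraries (replicates 17, 18 and 19). All 3 CD44LowKitPos libraries lay above every library of both CD44Neg and CD44LowKitNeg cells. The log2 fold change was 1.65 (SE 0.25, adjusted p = 0.000332) by edgeR's test with Benjamini-Hochberg adjustment, and the call held in all 28 alternatives run, leaving out each of the 22 libraries included.

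At an adjusted p under 0.05 edgeR called 3 of the 35, beside 12.5% of all genes. The median log2 fold change of the 35 genes in this comparison was -0.53, beside -0.021 for all genes, and 25 of the 35 lay below 0. CD44LowKitPos cells have no E11 library, and in a fit of the E9.5 and E10 libraries alone the median was -0.022. With stage as a covariate it was -0.16. Genes at -1 or beyond that were not called were *Naglu* (-2.21, SE 1.06), *Ids* (-1.82, SE 1.20), *Npc1* (-1.56, SE 0.57), *Lipa* (-1.46, SE 0.40), *Psap* (-1.28, SE 0.51), *Ctns* (-1.23, SE 0.81), *Lamp2* (-1.14, SE 0.34) and *Arsa* (-1.10, SE 0.63). *Lipa* measured 50.03, 127 and 94.1 CPM in CD44LowKitPos libraries, each under the lowest CD44LowKitNeg library, and *Npc1* measured 13.3, 15.1 and 29.4 CPM, again each under it. *Ctns*, at 15.2, 11.2 and 10.5 CPM, was the third gene with all CD44LowKitPos libraries under the CD44LowKitNeg range. DESeq2, which called 9.60% of all genes in either direction, called *Lipa* and *Lamp2* lower as well. In the E9.5 and E10 fit of edgeR with Benjamini-Hochberg adjustment, *Lipa* had -1.11 (SE 0.36, adjusted p = 0.0753) and *Lamp2* -1.19 (SE 0.38, adjusted p = 0.073).

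Against CD44Neg cells, *Gusb* and *Cd63* were higher in CD44LowKitPos cells. These 2 of 35 rose and 0 fell, where 2.08% of all genes were called higher and 1.41% lower. Over all genes the 451 calls in both directions became 182 without CD44LowKitPos replicate 17 and 159 without replicate 18. *Cd63* measured 183, 197 and 224 CPM in CD44LowKitPos libraries, all above every CD44Neg library, with a log2 difference of 1.22 (SE 0.24, adjusted p = 0.0022). That of *Gusb* was 1.19 (SE 0.23, adjusted p = 0.0016) in the same edgeR fit with Benjamini-Hochberg adjustment. The call of *Cd63* was lost without CD44LowKitPos replicate 18 or 19 and that of *Gusb* without replicate 17, with adjusted p up to 0.0141 and 0.0463 in edgeR. The median of the 35 was 0.018, beside -0.011 for all genes. In the fit of E9.5 and E10 libraries alone it was 0.30 and with stage as a covariate 0.28. *Arsb* (1.34, SE 1.16) was the one gene past 1 in size that was not called.

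**Figure D4:**
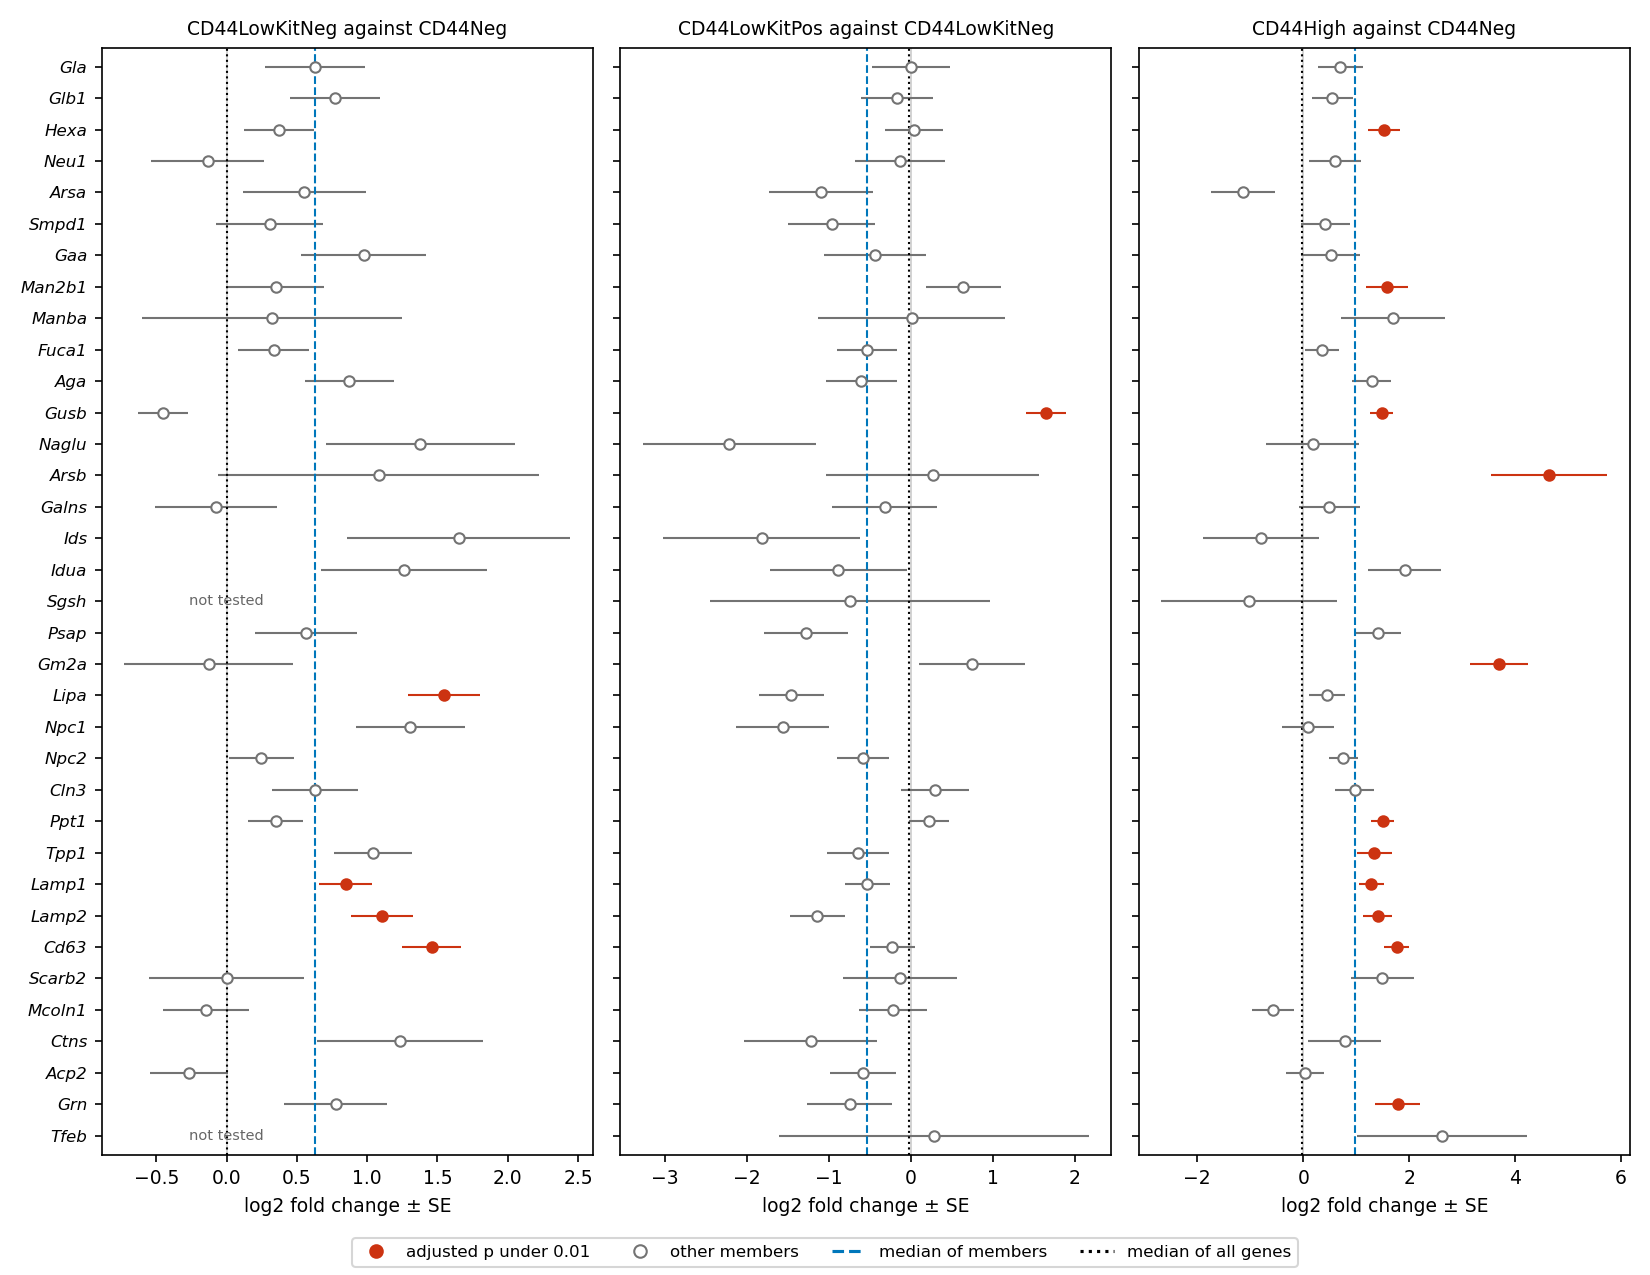
Log2 fold change with its SE for each of the 35 lysosomal genes in 3 comparisons, with genes past an adjusted p of 0.01 filled in red, the median of the lysosomal genes dashed and that of all genes dotted. The dashed line lies at 0.63 in CD44LowKitNeg against CD44Neg, at -0.53 in CD44LowKitPos against CD44LowKitNeg and at 0.97 in CD44High against CD44Neg, and each panel has its own scale.

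The comparison of CD44High with CD44Neg cells had more called lysosomal genes than any other made here. In it 11 of the 35 rose and 0 fell, where 7.14% of all genes were called higher and 7.25% lower. The median log2 fold change was 0.97, beside -0.015 for all genes, and 31 of the 35 lay above 0. All CD44High libraries are from E11, and with stage as a covariate the median was 0.66, with 24 of the 35 above 0, and within E11 alone it was 0.74, with 29 above 0. The macrophage markers given above are high in the same 3 libraries, and their part in these results was not tested. With stage as a covariate *Arsb*, *Grn*, *Hexa*, *Man2b1* and *Tpp1* missed the threshold, with log2 fold changes of 4.62 (SE 1.56), 1.09 (SE 0.33), 1.10 (SE 0.33), 1.22 (SE 0.40) and 0.79 (SE 0.33), and 6 of the 35 remained called, where 14.6% of all genes were called in either direction. Within E11 alone *Lamp1* (1.05, SE 0.26) and *Lamp2* (1.02, SE 0.30) missed it too, *Arsb* had 5.17 (SE 1.73) and *Man2b1* 1.41 (SE 0.39), and 4 of the 35 (*Cd63*, *Gm2a*, *Gusb* and *Ppt1*) were called, beside 8.47% of all genes.

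*Arsb*, which removes sulphate from dermatan and chondroitin sulphate, had the largest difference. It measured 50.6, 67.8 and 55.9 CPM in CD44High libraries (replicates 20, 21 and 22) and 0 to 6.26 CPM (median 1.03) in CD44Neg libraries. It reached at most 9.998 CPM in CD44LowKitNeg and 13.01 CPM in CD44LowKitPos libraries, so no other library came near. The log2 fold change was 4.64 (SE 1.10, adjusted p = 0.00294) by edgeR's test with Benjamini-Hochberg adjustment, and the call was lost without any 1 of the CD44High libraries. Antisense transcripts share 48.2% and 11.5% of its transcript, and the strand setting of the counting is not given in the sources used here.

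*Gm2a*, whose product presents the ganglioside GM2 to hexosaminidase, measured 55.4, 102 and 164 CPM in CD44High libraries. It measured 2.25 to 13.8 CPM (median 7.52) in CD44Neg, 2 to 22.2 CPM (median 4.44) in CD44LowKitNeg and 11.9, 17.8 and 8.7 CPM in CD44LowKitPos libraries. The CD44High range lay above all others, with a log2 difference of 3.70 (SE 0.55, adjusted p = 1.81e-05) against CD44Neg cells in edgeR. *Hexa*, the alpha subunit of that hexosaminidase, measured 150.1, 301 and 417 CPM in CD44High and 53.5 to 158 CPM (median 112) in CD44Neg libraries. Replicate 20 lay inside the CD44Neg range and the other 2 above it. The log2 fold change was 1.52 (SE 0.31, adjusted p = 0.000618) in the same edgeR fit, and the call was lost without replicate 22.

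*Grn* encodes progranulin, the secreted and lysosomal precursor of the granulins, and measured 155, 419 and 336 CPM in CD44High and 28.1 to 158 CPM (median 87.7) in CD44Neg libraries. Here too replicate 20 lay inside the CD44Neg range, with a log2 difference of 1.78 (SE 0.43, adjusted p = 0.00309) in edgeR that was lost without replicate 21 or 22. *Cd63* measured 237, 328 and 303 CPM, above every CD44Neg library, with 1.76 (SE 0.24, adjusted p = 5.05e-06) in edgeR. *Man2b1*, lysosomal alpha-mannosidase, measured 84.4, 199 and 168 CPM in CD44High and 10.8 to 82.4 CPM (median 43.8) in CD44Neg libraries, without overlap. Its log2 fold change was 1.58 (SE 0.40, adjusted p = 0.00497) in edgeR, lost without CD44Neg replicate 5 or CD44High replicate 21 or 22. Replicate 20 was the lowest CD44High library for 9 of the 11 called genes and the highest for *Ppt1* and *Lamp2*, and of the 3 libraries it had the lowest sum of macrophage markers and the highest sums of erythroid and mesenchyme markers. Their part in this was not tested.

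The other 5 called genes were *Ppt1*, *Gusb*, *Lamp2*, *Tpp1* and *Lamp1*, with adjusted p from 1.12e-05 to 0.00334 in edgeR and log2 fold changes from 1.28 to 1.497. *Ppt1*, a palmitoyl-protein thioesterase, measured 179.5, 157 and 169 CPM in CD44High, 44.02 to 91.4 CPM (median 55.2) in CD44Neg, 53.5 to 101 CPM (median 76.3) in CD44LowKitNeg and 75.7, 100 and 91.7 CPM in CD44LowKitPos libraries. All 3 CD44High libraries lay above all 19 others. *Gusb* measured 214, 274 and 418 CPM in CD44High libraries, which overlapped those of CD44LowKitPos cells and lay above all CD44Neg and CD44LowKitNeg libraries. *Lamp1* measured 530.4, 784 and 744 CPM and *Lamp2* 935, 709 and 391 CPM in CD44High libraries. For *Lamp2* replicate 22 lay inside the CD44Neg range and the call was lost without replicate 20, and that of *Tpp1* was lost without replicate 21 or 22.

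Genes that differed from CD44Neg cells by a log2 fold change of at least 1 without being called were *Tfeb* (2.62, SE 1.61), *Idua* (1.92, SE 0.69), *Manba* (1.70, SE 0.98), *Scarb2* (1.49, SE 0.60), *Psap* (1.42, SE 0.42) and *Aga* (1.29, SE 0.37), and in the other direction *Arsa* (-1.14, SE 0.61) and *Sgsh* (-1.02, SE 1.66). The value of *Tfeb* rests on few reads, with 1.99 to 5.78 CPM in CD44High libraries and 0 in 6 of the 10 CD44Neg libraries. *Psap*, the precursor of the saposins that activate glycolipid hydrolases, measured 73.7, 135 and 167 CPM in CD44High libraries, each above the highest CD44Neg library (70.7 CPM). *Arsa*, which degrades sulphatide, measured 14.9, 3.42 and 9.98 CPM in CD44High and 4.27 to 36.8 CPM (median 21.4) in CD44Neg libraries, with overlap. An antisense transcript shares 19.8% of its transcript.

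Against CD44LowKitNeg cells, *Gm2a*, *Gusb* and *Ppt1* were higher in CD44High cells. These 3 of 35 rose and 0 fell, where 7.79% of all genes were called higher and 8.17% lower. The log2 fold changes were 3.83 (SE 0.65, adjusted p = 0.0001) for *Gm2a*, 1.94 (SE 0.25, adjusted p = 3.45e-06) for *Gusb* and 1.16 (SE 0.24, adjusted p = 0.000811) for *Ppt1* in edgeR with Benjamini-Hochberg adjustment. The call of *Ppt1* was lost without CD44High replicate 20, and within E11 alone *Gusb* was the one kept, with *Gm2a* at 3.09 (SE 0.78, adjusted p = 0.0133) and *Ppt1* at 0.82 (SE 0.29, adjusted p = 0.054) in edgeR, where 15.5% of all genes were called in either direction. At an adjusted p under 0.05 there were 7 of the 35, beside 26.8% of all genes. The median of the 35 was 0.34, beside 0.000 for all genes, with 25 above 0. It was 0.15 within E11 alone, with 19 above 0, 0.21 without CD44High replicate 22 and 0.23 without replicate 21. The 3 membrane genes called between CD44LowKitNeg and CD44Neg cells had 0.31 (SE 0.27) for *Cd63*, 0.44 (SE 0.27) for *Lamp1* and 0.31 (SE 0.32) for *Lamp2* here.

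*Lipa* measured 74.9, 130 and 139.9 CPM in CD44High libraries, each under the lowest CD44LowKitNeg library, with a log2 difference of -1.10 (SE 0.39, adjusted p = 0.0391) in edgeR that missed the threshold and was called by DESeq2. *Npc1* measured 18.3, 34.4 and 20.7 CPM, also under the whole CD44LowKitNeg range. Both genes thus had their highest median in CD44LowKitNeg libraries. Genes above 1 that were not called were *Arsb* (3.57, SE 1.28), *Tfeb* (3.23, SE 1.86), *Scarb2* (1.501, SE 0.67), *Manba* (1.39, SE 1.10), *Man2b1* (1.24, SE 0.45), *Hexa* (1.16, SE 0.34) and *Grn* (1.02, SE 0.48), and those at -1 or beyond were *Ids* (-2.44, SE 1.25), *Arsa* (-1.68, SE 0.66), *Sgsh* (-1.21, SE 1.76), *Npc1* (-1.20, SE 0.56), *Naglu* (-1.19, SE 1.002) and *Lipa* (-1.10, SE 0.39). *Arsa* was called lower with stage as a covariate.

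Against CD44LowKitPos cells, with 3 libraries on each side, edgeR's test called 0 of the 35 genes in either direction, where 0.780% of all genes were called higher and 2.23% lower. Without CD44High replicate 22 the 390 calls over all genes became 251 here, and the 2067 against CD44LowKitNeg cells became 1334. At an adjusted p under 0.05 it called 3, beside 6.05% of all genes. At an unadjusted p under 0.05 there were 10, beside 17.8% of all genes, and DESeq2 called 3, *Gm2a*, *Lamp2* and *Psap*, all higher, where it called 5.53% of all genes in either direction. CD44LowKitPos libraries are from E9.5 and E10 and CD44High libraries from E11, so population and stage cannot be told apart here. The median log2 fold change was 0.90, beside -0.023 for all genes, and 29 of the 35 lay above 0, while with stage as a covariate the median was 0.35. Genes of at least 1 were *Arsb* (3.30, SE 1.65), *Gm2a* (3.09, SE 0.82), *Tfeb* (2.94, SE 2.37), *Psap* (2.14, SE 0.58), *Grn* (1.76, SE 0.59), *Scarb2* (1.64, SE 0.82), *Idua* (1.54, SE 0.95), *Lamp2* (1.45, SE 0.38), *Manba* (1.38, SE 1.34), *Hexa* (1.13, SE 0.42), *Npc2* (1.10, SE 0.36), *Smpd1* (1.08, SE 0.60), *Aga* (1.03, SE 0.49) and *Naglu* (1.02, SE 1.11).

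Stage was tested within CD44Neg cells, where *Grn* was higher at E11 than at E9.5. It was the 1 of 33 genes that rose, and 0 fell, where 0.416% of the 10813 genes tested were called higher and 0.314% lower. Over all genes the 79 calls in both directions became 4 to 20 without CD44Neg replicate 1, 2, 3, 4 or 7 and 134 without replicate 6. *Grn* measured 28.6, 64.1, 28.1 and 44.2 CPM at E9.5 (replicates 4 to 7), 136, 51.2 and 111 CPM at E10 and 131, 158 and 145 CPM at E11. E9.5 and E11 did not overlap, and the E10 libraries spread across both. The log2 fold change was 1.81 (SE 0.29, adjusted p = 0.00899) by edgeR's test with Benjamini-Hochberg adjustment. The call was kept in 2 of 7 fits that left out 1 library, and was lost without replicate 1, 2, 3, 4 or 7, with an adjusted p up to 0.0489 in edgeR. In CD44LowKitNeg cells *Grn* measured 89.2 CPM at E9.5, 102 and 110.3 CPM at E10 and 232, 200.2 and 195 CPM at E11, with E11 highest again.

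The summed level of the 35 genes in CD44Neg cells was 1645 ± 133 CPM at E9.5 (mean and SD, n = 4), 1855 ± 147 CPM at E10 (n = 3) and 2210 ± 245 CPM at E11 (n = 3). In CD44LowKitNeg cells it was 2631 CPM at E9.5 (1 library), 2270 and 2880 CPM at E10 and 3765 ± 429 CPM at E11 (n = 3). At each stage every CD44LowKitNeg library had a higher sum than every CD44Neg library. The sum is weighted towards abundant genes. At E10 the means in CD44LowKitNeg and CD44Neg libraries were 532.5 and 282.1 CPM for *Lamp1* and 548.6 and 233.3 CPM for *Lamp2*. Gene by gene, the median log2 fold change between the 2 populations within E10 was 0.093, with 18 genes above 0. The median log2 fold change of E11 against E9.5 in CD44Neg cells was 0.56, beside 0.023 for all genes, and 26 of 33 genes lay above 0. The 7 endothelial markers had a median of 0.58 there, all above 0. *Rn45s* took 15.16 to 17.92% of counts in E11 and 1.921 to 13.78% in E9.5 CD44Neg libraries. The part of either in the shift was not tested. Among the 33 lysosomal genes the larger changes were as follows. Those of at least 1 that were not called were *Manba* (3.06, SE 1.25), *Gaa* (1.74, SE 0.53), *Galns* (1.69, SE 0.49), *Ctns* (1.497, SE 1.0), *Glb1* (1.34, SE 0.36), *Arsa* (1.31, SE 0.55), *Psap* (1.28, SE 0.46) and *Cln3* (1.04, SE 0.40). *Cd63*, in contrast, had 0.14 (SE 0.27).

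Whether the difference between CD44LowKitNeg and CD44Neg cells changed between E10 and E11 was tested as an interaction. By edgeR 0 of 35 genes passed in either direction, with 4 at an unadjusted p under 0.05 (beside 10.7% of all genes) and 0 by DESeq2, which passed 0.951% of all genes. The median term of the 35 was 0.60, beside -0.032 for all genes, and 26 lay above 0, where a positive term is a higher log2 fold change at E11 than at E10. The 7 endothelial markers had a median term of 1.006, all above 0, and their part in the result was not tested. Among all 12403 genes 0% passed higher and 0.00806% lower. *Cd63* had an interaction term of 0.82 (SE 0.39) on the log2 scale. Terms of at least 1 were *Tfeb* (4.52, SE 3.79), *Sgsh* (3.42, SE 2.89), *Ids* (2.09, SE 1.99), *Arsb* (2.05, SE 3.29), *Mcoln1* (1.98, SE 0.58), *Gm2a* (1.71, SE 1.48), *Naglu* (1.34, SE 1.22), *Man2b1* (1.28, SE 0.51) and *Fuca1* (1.16, SE 0.51).

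Other genes of the lysosome, on lists set beside the 35, moved in the same comparisons in part, all called in edgeR at an adjusted p under 0.01. In CD44LowKitNeg against CD44Neg cells 2 of 22 further hydrolases and membrane proteins tested were higher and 0 lower, *Asah1*, acid ceramidase (0.997, SE 0.21), and *Laptm5*, a lysosomal membrane protein of haematopoietic cells (2.27, SE 0.36). Of 15 subunits of the proton pump 2 were higher and 0 lower, *Atp6ap2* (0.98, SE 0.19) and *Atp6v1g1* (0.64, SE 0.13). The medians of these lists were 0.21 and 0.23. Of 15 genes of MiT/TFE factors and lysosomal nutrient sensing, *Rragd* (4.89, SE 1.16) and *Fnip1* (1.75, SE 0.44), both of the Rag GTPase pathway upstream of mTORC1, were higher. *Rragd* measured 0 to 2.66 CPM in CD44Neg and 1.88 to 30.5 CPM in CD44LowKitNeg libraries. Of 15 autophagy genes *Gabarapl1* was lower (-0.999, SE 0.23), while 11 of the 15 lay above 0 with a median of 0.27, and of 10 genes of enzyme sorting 0 were called, with 1 at an unadjusted p under 0.05.

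*Tfeb*, the one transcription factor among the 35, was low. It measured 0 to 1.94 CPM in CD44Neg, 0 to 1.41 CPM in CD44LowKitNeg, 0 to 0.918 CPM in CD44LowKitPos and 1.99 to 5.78 CPM in CD44High libraries. A count of 0 allows up to 3 reads, or 0.353 to 0.793 CPM depending on the library, for counting error only. *Tfec*, another MiT/TFE factor, measured 4.99 to 67.3 CPM (median 17.9) in CD44Neg, 0 to 7.59 CPM (median 0) in CD44LowKitNeg, 27.7, 23.4 and 13.4 CPM in CD44LowKitPos and 49.1, 75.1 and 75.6 CPM in CD44High libraries. It was called higher in CD44High than in CD44LowKitNeg cells (5.19, SE 1.09).

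In CD44LowKitPos against CD44LowKitNeg cells the other lists held *Gabarapl1* higher (1.72, SE 0.29) and *Igf2r*, the cation-independent mannose 6-phosphate receptor that carries new hydrolases to the lysosome, lower (-1.77, SE 0.37). Against CD44Neg cells *Laptm5* alone was called (2.87, SE 0.38). In CD44High libraries both mannose 6-phosphate receptors changed, in opposite directions. *Igf2r* measured 16.1, 12.4 and 5.25 CPM in CD44High and 106 to 225 CPM (median 143) in CD44Neg libraries (-3.73, SE 0.42). *M6pr*, the cation-dependent receptor, measured 281, 214 and 278 CPM and 66.9 to 154 CPM (median 131) (1.04, SE 0.23). The groups did not overlap for either gene.

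The shares of all genes called, given above for each comparison, are the background for these lists too. Of 23 further hydrolases and membrane proteins 8 were higher and 1 lower in CD44High than in CD44Neg cells, with a median of 0.97 beside -0.015 for all genes, of which 7.14% were higher and 7.25% lower. The largest were *Dnase2a* (6.01, SE 1.46), a lysosomal nuclease, *Cd68* (5.85, SE 0.80), a membrane protein abundant in macrophages, and *Laptm5* (4.49, SE 0.38), and the lower gene was *Laptm4b* (-3.84, SE 0.37). Of 15 proton pump subunits 6 were higher and 0 lower, with a median of 0.66, led by *Atp6ap2* (1.61, SE 0.24), *Atp6v1f* (1.30, SE 0.19) and *Atp6v0e* (1.20, SE 0.24). Of 16 genes of nutrient sensing, *Lamtor4* (1.26, SE 0.34), *Lamtor5* (0.89, SE 0.20) and *Lamtor1* (0.89, SE 0.22), subunits of the Ragulator complex on the lysosome, were higher. Of 15 autophagy genes 1, *Gabarap* (0.86, SE 0.22), was higher and 0 lower, and 8 lay below 0 with a median of -0.074.

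Against CD44LowKitNeg cells 5 of 23 further hydrolases and membrane proteins were higher in CD44High cells and 1 lower, where 7.79% of all genes were higher and 8.17% lower. They included *Cd68* (8.30, SE 1.10), *Lgmn*, asparagine endopeptidase (2.96, SE 0.53), and *Dnase2a*, which measured 12.5, 33.9 and 48.3 CPM in CD44High libraries and 0 in all 6 CD44LowKitNeg libraries, and the lower gene was again *Laptm4b* (-4.02, SE 0.38). Of 15 pump subunits 4 were higher and 0 lower, led by *Atp6v1f* (1.05, SE 0.21), *Atp6v1b2* (0.995, SE 0.22) and *Atp6v0e* (0.98, SE 0.26). Of 16 genes of nutrient sensing 3 were higher, *Tfec* with the value above, *Lamtor2* (1.16, SE 0.30) and *Lamtor1* (1.08, SE 0.24). Of 15 autophagy genes *Map1lc3a*, of the autophagosome membrane, was lower (-1.86, SE 0.47). *Igf2r* was lower (-4.09, SE 0.43) and *M6pr* higher (1.07, SE 0.25) here as well. Against CD44LowKitPos cells the called genes of these lists included *Lgmn* (5.20, SE 0.76), which was higher, and *Laptm4b* (-3.42, SE 0.39) and *Igf2r* (-2.33, SE 0.43), which were lower.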

How the data were processed

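RNA was measured with Smart-seq2 in 22 libraries of 25 sorted cells each. The deposited values are raw read counts per gene symbol, which the authors made in Galaxy by trimming with the FASTX tools, aligning with RNA STAR and counting with htseq-count. Per the labels the genome build was mm10. The strand setting and annotation of the counting are not given in the sources used here. Totals were 3912350 to 8657546 counts per library, and no 2 libraries of a group agreed within sampling noise (chi-square per degree of freedom of 17 or more over 66 pairs).

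Libraries were grouped by the labels' population and stage. Counts were tested in R 4.3.3 with edgeR 4.0.16 (TMM scaling, filterByExpr with a minimum count of 10 and total of 15, quasi-likelihood fit with a prior count of 0.125, Benjamini-Hochberg adjustment over all genes tested), and a gene was called at an adjusted p under 0.01. CD44LowKitNeg against CD44Neg used the 16 libraries of the pair, the other population comparisons all 22 libraries in 1 fit. Levels (CPM) are counts divided by library totals scaled by TMM over the 22 libraries, with lengths from the principal transcript. The steps were tested on simulated data. Alternatives were DESeq2 1.42.0, its size factors, no filter, an adjusted p under 0.05, thinned counts, stage as a covariate, stage-matched libraries and leaving out each library. Python 3.11.15, pandas 2.3.3 and matplotlib 3.10.9 made the level tables and figures.

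The 35 genes and all other lists were chosen with earlier results of these data known. Called genes of the 35 are named with all values (beyond 8, the 5 largest), called genes of the other lists up to the 3 largest in each direction, and so are genes of the 35 with a log2 fold change of at least 1 in size that were not called, and genes called in 2 or more population comparisons are given by library. A gene of the other lists is not reported here. *Hexa*, *Npc2*, *Psap*, *Arsa* and the promoter stretches were described further after their values were seen.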

Additional observations from a re-analysis of the deposited data

Results flagged for a closer look

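In groups of 4 to 10 libraries, 7 of 105 pairs of a lysosomal gene and a group held 1 library far from the rest by Dixon's criterion, which chance meets in about 1 in 20 groups. *Lipa* stood out in both endothelial groups, at 164.6 CPM in CD44Neg replicate 5 (45.65 to 107.3 CPM in the others) and at 445.7 CPM in CD44LowKitNeg replicate 11 (173.1 to 244.6 CPM in the others). The same replicate 11 had the highest *Naglu*, at 50.05 CPM (3.765 to 19.99 CPM in the others). *Gaa* was lowest in CD44LowKitNeg replicate 14, the one E9.5 library of that population, at 14.94 CPM (51.89 to 71.15 CPM in the others). The check pooled stages here, and *Gaa* was low at E9.5 elsewhere too. It measured 3.852 to 19.35 CPM in CD44Neg libraries at E9.5 (33.66 to 46.76 CPM at E10) and 12.6 CPM in the E9.5 CD44LowKitPos library. *Acp2* was highest in CD44Neg replicate 9, at 90.64 CPM (26.02 to 59.17 CPM in the others). *Sgsh* was at 17.13 CPM in CD44Neg replicate 8 (0 to 3.785 CPM in the others). *Tfeb* was at 1.892 CPM in replicate 5 among the CD44Neg libraries at E9.5 and at 0 in the other 3.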

How the results depend on the processing

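Counts of called lysosomal genes depended on stage matching, on the tool and on single libraries. Shares in brackets are of all genes called in either direction in the same fits. In CD44LowKitNeg against CD44Neg cells the 4 became 2 with E11 only (3.41%) and 0 with E10 only (0.00894%), and 3 to 5 when 1 library was left out (7.82 to 10.9%). DESeq2's Wald test called *Npc1* and *Tpp1* as well (15.9%). In CD44LowKitPos against CD44LowKitNeg cells the 1 became 3 with the DESeq2 Wald test (9.6%) and 3 at an adjusted p under 0.05 (12.5%). It was 1 to 2 with 1 library left out (0.48 to 5.33%). In CD44LowKitPos against CD44Neg cells the 2 became 1 to 2 with 1 library left out (1.17 to 4.65%). In CD44High against CD44LowKitPos cells the 0 became 3 with DESeq2 (5.53%) and 3 at an adjusted p under 0.05 (6.05%). It was 0 to 1 with 1 library left out (1.86 to 3.17%). In CD44High against CD44LowKitNeg cells the 3 became 1 with E11 only (15.5%) and 7 at an adjusted p under 0.05 (26.8%). It was 3 to 4 with 1 library left out (9.87 to 16.9%). In CD44High against CD44Neg cells the 11 became 6 with stage as a covariate (14.6%) and 4 with E11 only (8.47%). It was 6 to 13 with 1 library left out (9.95 to 14.6%), with 7 without CD44High replicate 21 (10.4%) and 6 without replicate 22 (10.7%). In CD44Neg E11 against E9.5 the 1 became 0 to 1 with 1 library left out (0.0356 to 1.26%). Stage-matched fits hold fewer libraries, and no cause of these changes was tested.

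Among called genes and genes with a log2 fold change of at least 1, values of 3 low genes changed sign. Smaller values did so more often, and in CD44High against CD44Neg the genes above 0 went from 31 to 24 of 35 with stage as a covariate. *Arsb* in CD44LowKitNeg against CD44Neg was -0.031 with E10 only. *Manba* in CD44High against CD44LowKitPos was -0.838 with stage as a covariate. The value for Sgsh, CD44High against CD44Neg, was 0.430 with E11 only and ran from -2.274 to 0.423 with 1 library left out. That for Sgsh, interaction of population and stage, ran from -2.034 to 4.293 with 1 library left out, and CD44Neg replicate 8 gave the change of sign in both. DESeq2's size factors moved the median of all genes in CD44LowKitPos against CD44LowKitNeg to -0.155, where the lysosomal median was -0.668. No paired analysis was run. Replicate numbers run serially through all libraries and so name no pairs, and shared stages entered the fits with stage as a covariate.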
